A study of Mus musculus with 8 samples.

Results

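Transcripts of 10 genes that respond within minutes to cAMP and growth signals were examined in whole mouse kidneys. They are the orphan nuclear receptors *Nr4a1*, *Nr4a2* and *Nr4a3*, the AP-1 and zinc finger transcription factors *Fos*, *Fosb*, *Junb* and *Egr1*, and *Crem*, *Atf3* and *Dusp1*. They were listed as NR4A receptors and immediate early genes induced through CREB. The 10, of 55401 genes in the deposited files, were matched by gene ID and were not chosen from measured values. RNA-Seq was performed on kidneys of 4 controls, whose labels give SIK1f/f;SIK2f/f,SIK3f/f, and of 4 mice with the same floxed (loxP-flanked) alleles and Six2-Cre, called SIK mutant here. Six2-Cre recombines floxed alleles in nephron progenitors and their epithelial descendants, and not in stromal, vascular or blood cells. The controls were littermates that lacked Cre. For *Sik1* the labels give 2 floxed alleles in the mutants, whereas the study describes its surviving mutants as heterozygous. The labels give no age, sex or batch, and nothing in them names an acute stimulus.

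cAMP activates protein kinase A, which phosphorylates the transcription factor CREB bound to cAMP response elements (CREs). Salt-inducible kinases (SIKs) phosphorylate the CREB coactivators of the CRTC family and hold them in the cytoplasm. Parathyroid hormone inhibits SIKs in the kidney through protein kinase A. Immediate early genes are switched on by CREB, by serum response factor (SRF) and by ERK signaling without new protein synthesis, and their mRNAs are short-lived. The comparison asked whether transcripts of this kind differed in kidneys with *Sik* deletion, and how far kidneys of 1 genotype varied among themselves.

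CRE letters were common just upstream of the RefSeq starts of these genes. For *Nr4a1*, *Atf3* and *Dusp1* that start, and the window around it, lay inside the longer gene span given below. RefSeq promoter windows (GRCm38.p6, the build of mm10; 250 bases before and 50 after the start) were found for 8 of the 10 genes, with none for *Egr1* and *Crem* in the table used. All 8 held the 5-letter CRE core TGACG on either strand, against 20.8% of 32851 mouse windows. The genes were listed for induction through CREB, so this difference describes the list and tests nothing. The 3 NR4A windows each held 4 cores, a number reached by 0.231% of all windows, while the *Dusp1* window held 3, the *Fos* window 2 and those of *Fosb*, *Junb* and *Atf3* 1 each. The full palindrome TGACGTCA, which overlaps 2 of the cores, stood in the *Dusp1* window alone among the 8 and in 1.79% of all windows. Neither the AP-1 site TGACTCA (5.20% of windows) nor the CArG box bound by SRF (1.63%) was found in the 8 windows. Sites farther from the start, and any site of *Egr1* and *Crem*, were outside this search. Absence from these short windows thus does not mean that a gene lacks the site. Letter matches are descriptions of sequence and not evidence of binding. The bases upstream of the start, cut where an annotated exon begins, are shown for the NR4A genes, which carried the most cores in the whole window, and for *Fos* and *Dusp1*, which are followed closely below. The *Nr4a3* stretch ends before the last of its 4 cores, which lies 147 bases upstream of the RefSeq start, and so shows 3. Capitals mark the CRE core on either strand, and each stretch runs 5′ to 3′ on the gene's own strand:
Nr4a1, chr15:101266596-101266845, plus strand: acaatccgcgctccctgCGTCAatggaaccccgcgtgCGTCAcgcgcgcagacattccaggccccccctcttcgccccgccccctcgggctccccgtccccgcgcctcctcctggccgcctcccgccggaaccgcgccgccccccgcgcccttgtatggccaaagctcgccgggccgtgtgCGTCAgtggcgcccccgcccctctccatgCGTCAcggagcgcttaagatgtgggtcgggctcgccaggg
Nr4a2, chr2:57124004-57124253, minus strand: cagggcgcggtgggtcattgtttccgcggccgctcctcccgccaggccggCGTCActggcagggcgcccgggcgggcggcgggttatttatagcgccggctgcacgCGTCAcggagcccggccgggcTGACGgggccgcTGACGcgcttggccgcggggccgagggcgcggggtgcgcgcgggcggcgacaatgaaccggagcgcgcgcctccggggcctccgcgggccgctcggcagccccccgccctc
Nr4a3, chr4:48045055-48045152, plus strand: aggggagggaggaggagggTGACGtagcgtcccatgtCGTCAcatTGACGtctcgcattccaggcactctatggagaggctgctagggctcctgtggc
Fos, chr12:85473640-85473889, plus strand: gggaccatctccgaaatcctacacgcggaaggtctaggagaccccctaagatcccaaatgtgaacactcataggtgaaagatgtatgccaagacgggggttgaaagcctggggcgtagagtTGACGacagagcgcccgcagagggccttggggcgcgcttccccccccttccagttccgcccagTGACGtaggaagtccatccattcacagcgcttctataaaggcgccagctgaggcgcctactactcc
Dusp1, chr17:26508520-26508722, minus strand: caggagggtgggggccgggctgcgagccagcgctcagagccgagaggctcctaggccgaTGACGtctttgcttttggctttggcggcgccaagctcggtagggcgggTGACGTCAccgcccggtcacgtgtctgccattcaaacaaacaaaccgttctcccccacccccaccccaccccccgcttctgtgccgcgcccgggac

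Each library held 10179648 to 10925100 expected counts, RSEM's estimates of reads per gene. Levels per kidney are CPM, read counts relative to library size with TMM scaling, and 3 counts correspond to 0.263 to 0.304 CPM. *Sik3* was 62.9 ± 3.79 CPM in controls and 39.5 ± 4.10 CPM in mutants (SD, n = 4 each), with no overlap between groups (FDR = 0.0697 by edgeR). *Sik2* was 9.14 ± 0.841 and 6.72 ± 2.07 CPM, with overlap, and *Sik1* was 40.8 ± 2.84 and 50.6 ± 4.85 CPM, the higher value being in the mutants. These counts cover whole genes, not the floxed exons alone. Controls 3 and 4 stood apart from the other kidneys: they had no or almost no Y-linked reads, *Xist* of 260.5 and 297.8 CPM, and separated on the first principal component (35.7% of the variance). The other 6 kidneys, 2 controls and 4 mutants, had Y-linked reads and *Xist* of at most 0.494 CPM. By these reads controls 3 and 4 were female and the other 6 kidneys male, so sex was unbalanced between genotypes. Results are also given for these 6. The kidney tubule and podocyte markers summed to 10662 to 12048 CPM in controls and 9971 to 10797 CPM in mutants.

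No difference between genotypes was called for the transcripts that entered the test across all genes, which does not show that levels were equal. Of the 10, 6 had enough counts to be tested, and 0 of these 6 passed a false discovery rate (FDR) of 0.05 by edgeR's quasi-likelihood test, where 0.0% of all 14326 tested genes were called. At an unadjusted p of 0.05, 0 of the 6 passed, beside 911 of all genes (6.36%). DESeq2 also called 0 of the 6, beside 0.468% of all genes. The control and mutant values overlapped for each of the 10, whereas 4.03% of tested genes had groups that did not overlap. Fitted log2 fold changes of mutant over control were above 0 for 5 of the 6 tested (49.2% of all genes), with a median of 0.40 beside -0.0038 over all genes. *Dusp1* was the exception. That median was 0.11 without SIK mutant 1. In whole tissue, fewer cells that make a transcript and less transcript per cell cannot be told apart.

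**Figure D1:**
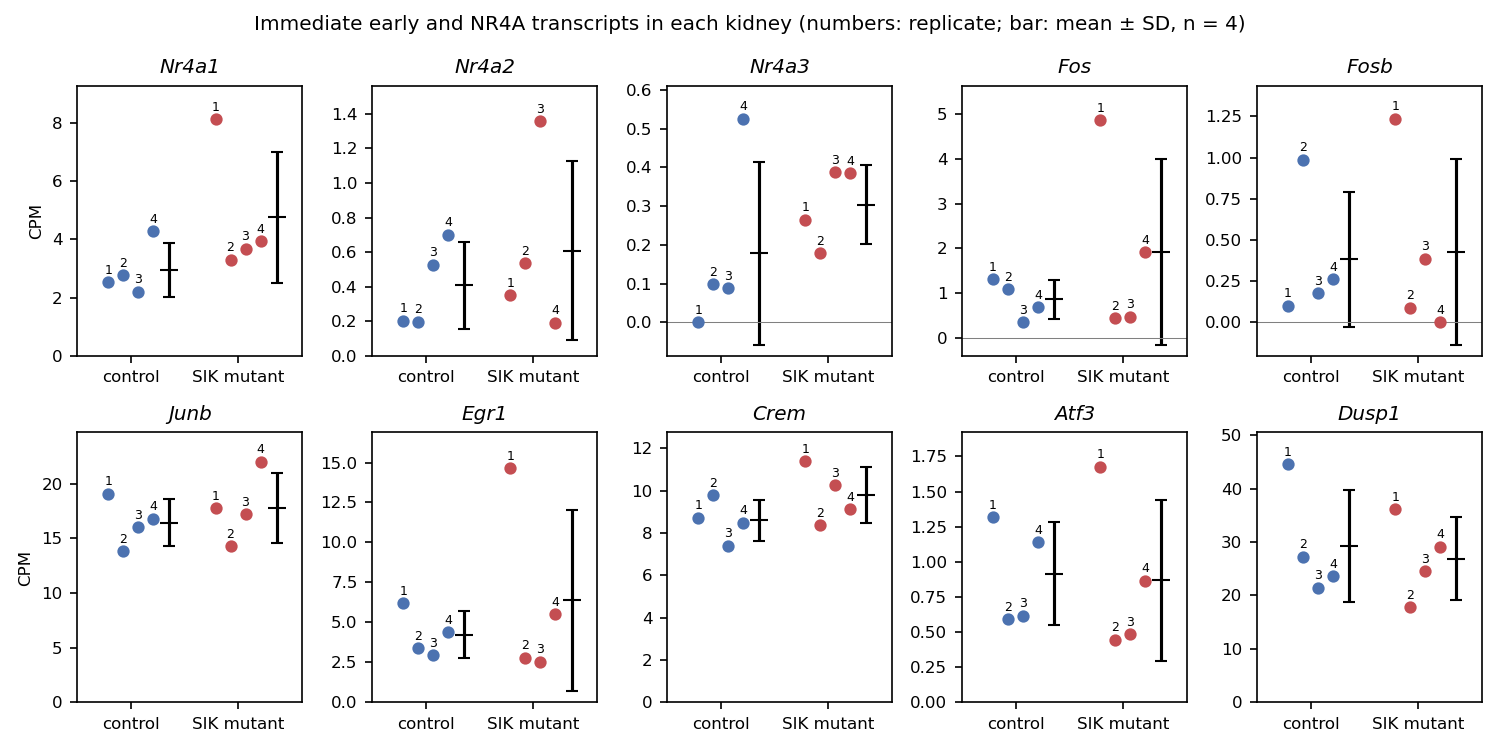
CPM (vertical axes, linear) of the 10 transcripts in 4 control (blue) and 4 SIK mutant (red) kidneys, with replicate numbers beside the points and the mean ± SD as a bar, which can reach below 0. SIK mutant 1 is the highest of the 8 kidneys for 6 of the 10 transcripts, and the groups overlap in every panel.

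The levels set the transcripts apart from each other. On the length-corrected TPM scale (RSEM's transcript abundance, mean of 8 kidneys), *Dusp1* was at 17.2, *Junb* at 11.3 and *Crem* at 9.12. *Nr4a1* followed at 1.93, *Egr1* at 1.79 and *Fos* at 0.858. *Atf3* (0.633), *Nr4a2* (0.226), *Fosb* (0.158) and *Nr4a3* (0.0538) were lowest. *Dusp1* exceeded *Junb*, *Crem* exceeded *Nr4a1* and *Egr1* exceeded *Fos* in 8 of 8 kidneys. The order of other neighbours was not the same in every kidney: *Junb* was above *Crem* in 6 of 8, *Nr4a1* above *Egr1* in 5 and *Fos* above *Atf3* in 4.

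*Nr4a1* encodes an orphan nuclear receptor that controls transcription without a known natural ligand, and is an established CREB target. Its gene lies at chr15:101254269-101274795 (plus strand), with the 4 CRE cores shown above before the RefSeq start. It was 2.54, 2.77, 2.20 and 4.29 CPM in controls 1 to 4, and 8.12, 3.30, 3.68 and 3.94 CPM in mutants 1 to 4. Mutants 2 to 4 lay inside the control range and mutant 1 above it. The means were 2.95 ± 0.924 and 4.76 ± 2.25 CPM (SD, n = 4), and the log2 fold change was 0.69 (SE 0.34, 95% interval -0.07 to 1.45, FDR = 0.794 by edgeR). The two-sided exact permutation test of the means gave p = 0.143, where 0.0286 is the smallest p that 4 against 4 kidneys can give. Without mutant 1 the mutant mean was 3.64 ± 0.324 CPM (n = 3) and the log2 fold change 0.30 (SE 0.27). In the 6 kidneys with Y-linked reads it was 0.86 (SE 0.41, FDR = 0.487 by edgeR).

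The other NR4A receptors were near the limit of detection and were left out of the main test across genes. *Nr4a2*, known for its role in dopaminergic neurons, had 2, 2, 6 and 8 counts in controls and 4, 6, 14 and 2 in mutants. Its highest and its lowest kidney were both mutants (1.36 CPM in mutant 3 and 0.192 CPM in mutant 4), and the means were 0.407 ± 0.249 and 0.609 ± 0.517 CPM (exact permutation p = 0.657). *Nr4a3* had 0, 1, 1 and 6 counts in controls and 3, 2, 4 and 4 in mutants, so that only 8 and 13 counts stood behind each group. The means were 0.178 ± 0.236 and 0.304 ± 0.101 CPM (exact permutation p = 0.343), and control 4 held the highest value. Counts this low limit what can be detected for either receptor. With no filter on low counts, 0 of the 10 transcripts were called by edgeR. The 3 windows with 4 CRE cores thus belonged to genes at mean levels of 1.93, 0.226 and 0.0538 TPM.

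*Fos*, the AP-1 subunit often used to mark recently stimulated cells, varied most among the 6 tested transcripts. Its gene lies at chr12:85473890-85477273 (plus strand). It was 1.32, 1.09, 0.352 and 0.70 CPM in controls and 4.85, 0.446, 0.484 and 1.92 CPM in mutants. Mutants 1 and 4 were the highest of the 8 kidneys, while mutants 2 and 3 were below controls 1, 2 and 4. With means of 0.865 ± 0.426 and 1.93 ± 2.07 CPM, the log2 fold change was 1.17 (SE 0.75, 95% interval -0.51 to 2.86, FDR = 0.844 by edgeR; exact permutation p = 0.429). It was 0.15 (SE 0.63) without mutant 1, and 0.70 (SE 0.90) in the 6 kidneys with Y-linked reads. The variance among the mutants' counts was 24.8 times that of counting alone, against 2.25 times among controls.

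*Egr1*, a zinc finger factor induced through SRF and ERK as well as CREB, followed *Fos*. Its gene lies at chr18:34859823-34864984 (plus strand). Control values were 6.19, 3.36, 2.91 and 4.38 CPM, and mutant values 14.7, 2.76, 2.52 and 5.48 CPM. Mutant 1 was again highest, and mutants 2 and 3 were the lowest of all 8. The log2 fold change was 0.60 (SE 0.54, FDR = 0.902 by edgeR; exact permutation p = 0.714), and it was -0.23 (SE 0.36) without mutant 1, so that the direction rested on this kidney. In the 6 kidneys with Y-linked reads it was 0.44 (SE 0.69).

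*Junb* and *Fosb* encode further AP-1 subunits. *Junb* (chr8:84974484-84978718, minus strand) was 19.1, 13.8, 16.0 and 16.8 CPM in controls and 17.7, 14.3, 17.2 and 22.0 CPM in mutants. Every mutant but mutant 4 lay within the control range, and the log2 fold change was 0.12 (SE 0.15, 95% interval -0.22 to 0.45, FDR = 0.935 by edgeR). Its coefficients of variation of CPM were 13.2% in controls and 17.9% in mutants, against 49.3% and 107% for *Fos*. *Fosb* (chr7:19302696-19310051, minus strand) had 1, 10, 2 and 3 counts in controls and 14, 1, 4 and 0 in mutants, with the mutant maximum in mutant 1 (exact permutation p = 0.857). On these few counts its coefficients of variation were 107% and 132%. The 0 in mutant 4 allows up to 0.289 CPM, counting error alone.

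*Crem* and *Atf3* encode transcription factors of the CREB and ATF family, and an internal promoter of *Crem* yields the cAMP-induced repressor ICER. The gene-level values do not separate these *Crem* isoforms. *Crem* (chr18:3266048-3337748, minus strand) was 8.73, 9.78, 7.40 and 8.49 CPM in controls and 11.4, 8.38, 10.3 and 9.14 CPM in mutants. Mutants 1 and 3 were above the highest control, the others within the range, and the log2 fold change was 0.19 (SE 0.14, 95% interval -0.13 to 0.51, FDR = 0.879 by edgeR; exact permutation p = 0.200). *Atf3* (chr1:191170296-191218039, minus strand), which is induced by cell stress, had 13, 6, 7 and 13 counts in controls and 19, 5, 5 and 9 in mutants. Its means, 0.917 ± 0.368 and 0.868 ± 0.572 CPM, gave p = 0.886 in the exact permutation test.

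*Dusp1*, a phosphatase that inactivates MAP kinases, had the highest level and no consistent direction. Its gene lies at chr17:26505590-26562128 (minus strand). It was 44.6, 27.3, 21.5 and 23.6 CPM in controls and 36.1, 17.8, 24.5 and 29.2 CPM in mutants, so that control 1 was the highest kidney and mutant 1 the next. The log2 fold change was -0.12 (SE 0.26, 95% interval -0.71 to 0.48, FDR = 0.966 by edgeR; exact permutation p = 0.743). It was -0.40 (SE 0.27) in the 6 kidneys with Y-linked reads and 0.16 without control 1. *Dusp1* overlaps *Ergic1*, and *Junb* overlaps *Prdx2*, each on the opposite strand. Whether the counting used strand is not stated, so reads of these neighbours may be included.

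**Figure D2:**
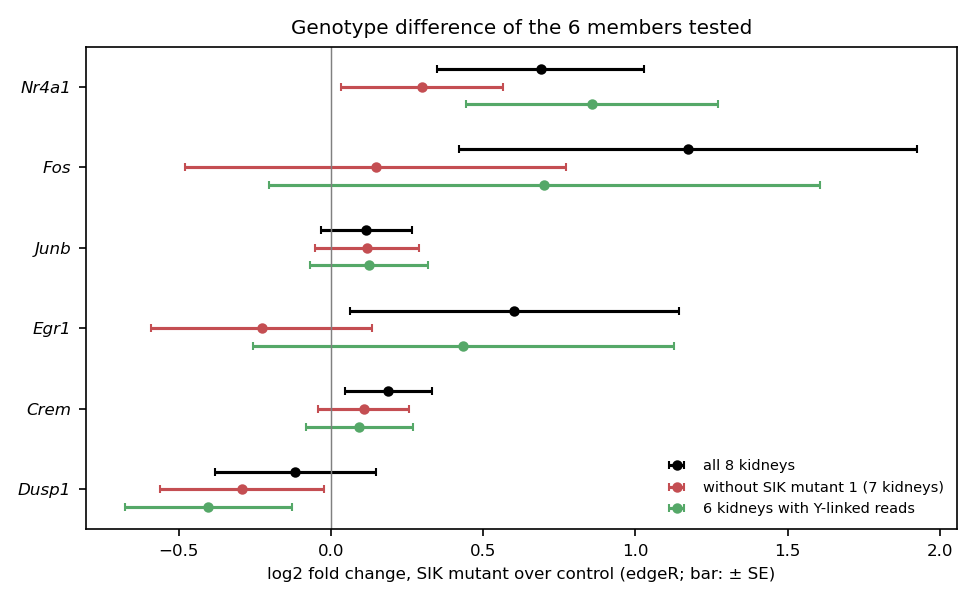
Fitted log2 fold changes of SIK mutant over control (horizontal axis, edgeR, bars ± SE) for the 6 tested transcripts with all 8 kidneys (black), without SIK mutant 1 (red) and in the 6 kidneys with Y-linked reads (green). Without SIK mutant 1, *Fos* moves from 1.17 to 0.15 and *Egr1* from 0.60 to -0.23, while *Junb* is 0.12 in both fits.

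The pooled spread among kidneys of 1 genotype was largest for *Fos* and *Egr1* among the 6 tested transcripts. The pooled within-group SD of log2 CPM was 1.26 for *Fos*, larger than that of 98.5% of tested genes, and 0.888 for *Egr1*, larger than that of 96.7%. *Nr4a1* (0.505) and *Dusp1* (0.449) exceeded 86.4% and 82.5% of genes. For *Egr1* the mutant SD was 5.69 CPM, and 1.65 CPM without SIK mutant 1 (n = 3). In controls the coefficient of variation of *Egr1* was 34.6%, beside 36.0% for *Dusp1* and 31.3% for *Nr4a1*. *Junb* (0.226) and *Crem* (0.179) were near the median over all genes, 0.215. Low transcripts vary more by counting alone, and *Fos* was the lowest of the 6.

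**Figure D3:**
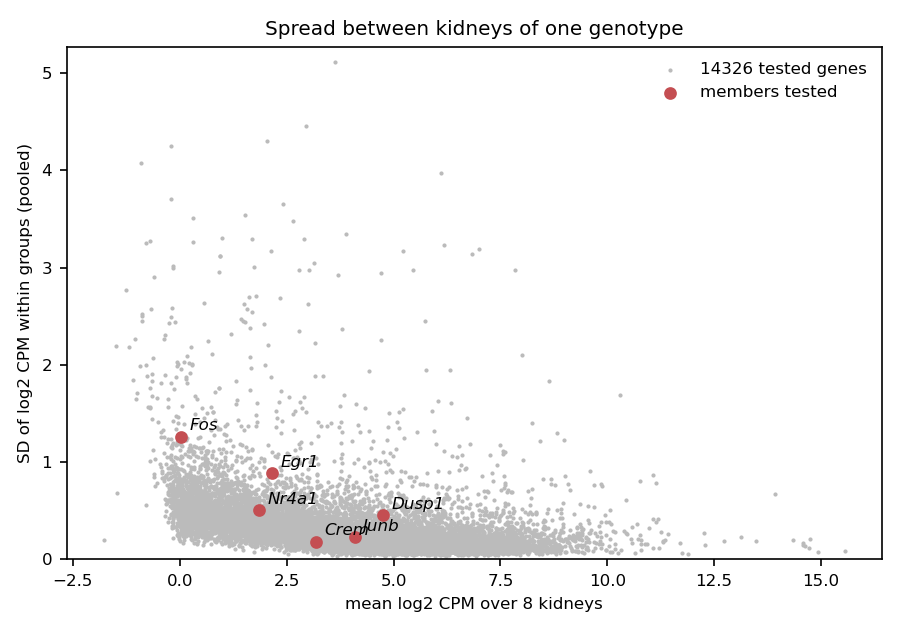
Pooled within-group SD of log2 CPM (vertical axis) against mean log2 CPM over 8 kidneys (horizontal axis) for 14326 tested genes (grey) and the 6 tested transcripts (red). *Fos* (1.26) and *Egr1* (0.888) lie in the upper part of the cloud at their level, and *Junb* (0.226) and *Crem* (0.179) within its body.

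SIK mutant 1 held the highest value of the 8 kidneys for *Nr4a1*, *Fos*, *Fosb*, *Egr1*, *Crem* and *Atf3*, 6 of the 10 transcripts. It held the highest value for 10.1% of all tested genes. The median deviation of the 6 tested transcripts from their means over kidneys was 0.80 (log2 CPM) in mutant 1, 0.30 in control 1 and 0.22 in mutant 4. It was lowest in control 3 (-0.47) and mutant 2 (-0.42), so that both genotypes had kidneys at each end. SIK mutant 1 also had the highest erythroid, smooth muscle and immune marker sums, with other mutants close for the erythroid and immune sums. The 5 erythroid genes (globins and *Alas2*), each highest in mutant 1, summed to 2967 CPM there and 2594 CPM in mutant 4, against 702 to 1233 CPM in controls, 731 in mutant 2 and 878 in mutant 3. The 3 smooth muscle markers summed to 126 CPM in mutant 1 and to 28.5 to 72.2 CPM in the other kidneys. Of these, *Acta2* (62.0 CPM) and *Tagln* (55.4 CPM) were highest in mutant 1. *Myh11* was not, at 8.39 CPM there beside 10.4 CPM in control 3 and 10.9 CPM in mutant 4. The 6 immune markers summed to 24.5 to 39.3 CPM in controls and 30.9 to 56.0 CPM in mutants, the highest in mutant 1. Mutants 2 and 4 followed at 50.3 and 47.2 CPM. *Lyz2* alone was 36.1 CPM in mutant 1, and 2 of the 6 were highest in that kidney. The means of *Cd3e* and *Cd79a*, on few counts, were 0.525 and 0.583 CPM in controls and 0.179 and 0.364 CPM in mutants. The other 4 had higher means in mutants. The 7 adipocyte markers summed to 0 to 221 CPM in controls and 118 to 201 CPM in mutants. Endothelial markers overlapped between groups (90.7 to 149 and 97.9 to 140 CPM), and the 3 tubule injury markers summed to 3.85 to 5.28 and 6.53 to 13.0 CPM. These 3 did not behave alike. *Lcn2* was 1.98 to 3.65 CPM in controls and 4.50 to 9.01 CPM in mutants. *Havcr1* overlapped between groups (0.264 to 1.62 and 0.962 to 4.01 CPM). The mean of *Krt20*, on few counts, was 0.492 CPM in controls and 0.286 CPM in mutants. Of 5 adrenal cortex markers, 2 were at 0 throughout and 4 had at most 3 counts in every kidney. The part of these cell markers in the results was not tested.

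Over the 8 kidneys, *Egr1* had the highest Pearson's r with *Fos* of the 5 other tested transcripts, on log2 CPM and on log2(TPM + 1) (r = 0.917). The order of the rest by r depended on the scale: on log2(TPM + 1), r was 0.876 for *Nr4a1*, 0.758 for *Crem* and 0.698 for *Dusp1*. Pearson's r of log2 CPM between *Egr1* and *Fos* was 0.933 (exact permutation p = 0.00231, adjusted 0.0115 over 5 relations), and Spearman's rho was 0.857 (exact permutation p = 0.0107, adjusted 0.0268). In the 6 kidneys with Y-linked reads r was 0.956 (exact permutation p = 0.00556, adjusted 0.0278), and without SIK mutant 1 and control 3, the kidneys farthest from the median of *Fos*, it was 0.833 (exact permutation p = 0.0625). The relation thus no longer passed 0.05 without these kidneys. For *Dusp1*, r was 0.746 (exact permutation p = 0.0341, adjusted 0.0686) and rho 0.881 (exact permutation p = 0.00724, adjusted 0.0268), with r = 0.694 in the 6 kidneys with Y-linked reads and 0.720 without the outermost pair. For *Nr4a1*, r was 0.702 (exact permutation p = 0.0528, adjusted 0.0686) and rho 0.548 (exact permutation p = 0.171), and r was -0.21 without SIK mutant 1 and control 3, so that it rested on those kidneys. *Crem* behaved likewise, with r of 0.694 (exact permutation p = 0.0549), rho of 0.690 (exact permutation p = 0.0694) and r of 0.0053 without that pair. *Junb* had r of 0.482 and rho of 0.643 (exact permutation p = 0.228 and 0.0962). Each point is 1 library, so both values of a pair share its depth and tissue piece.

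**Figure D4:**
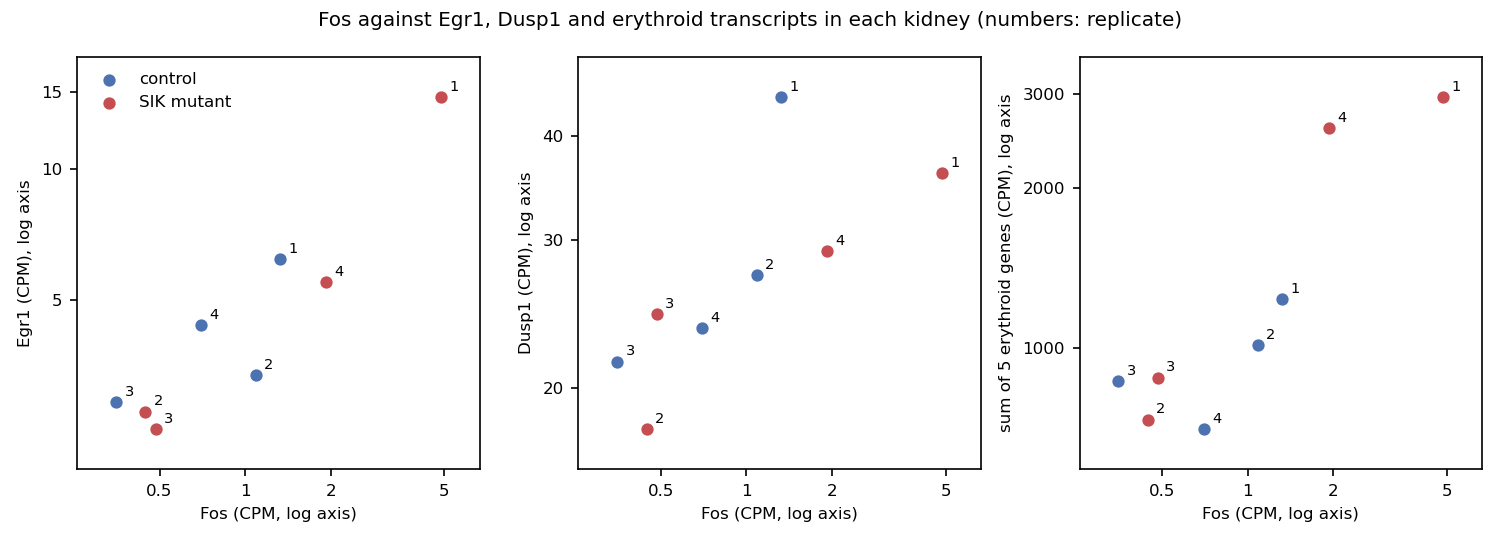
*Egr1*, *Dusp1* and the sum of 5 erythroid genes (vertical axes, CPM, log scale) against *Fos* (horizontal axes, CPM, log scale) in 4 control (blue) and 4 SIK mutant (red) kidneys, numbered by replicate. SIK mutants 1 and 4 have the highest *Fos* (4.85 and 1.92 CPM) and the highest erythroid sums (2967 and 2594 CPM).

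Among 14123 genes at a mean of at least 1 CPM, the pattern over 8 kidneys most like that of *Fos* belonged to *Med7*, *Kif11*, *Pclaf*, *Mastl* and *Ccdc34* (r 0.961 to 0.930). *Kif11* is a spindle motor, *Mastl* a mitotic kinase and *Pclaf* a partner of the replication clamp. *Kif11* was 1.06 to 2.03 CPM in controls and 6.44 CPM in mutant 1, beside 1.07, 0.969 and 2.02 CPM in mutants 2 to 4. The genes most like *Nr4a1* were *Tent5c*, *Kctd5*, *Daxx*, *Spry4* and *Apba1* (r 0.983 to 0.914). *Spry4*, an inhibitor of receptor tyrosine kinase signaling, was 5.02 to 7.88 CPM in controls and 11.4, 6.60, 8.33 and 6.16 CPM in mutants. These were the best of many correlations over the same 8 libraries and carry no test.

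The wider class of immediate early genes was also without a call by edgeR. Of 34 other immediate early genes listed, 28 were tested and 0 passed FDR 0.05 (0.0% of all genes), with 3 higher and 1 lower in mutants at an unadjusted p of 0.05, where 2.76% and 3.59% of all genes were higher and lower. Their median log2 fold change was 0.077, beside -0.0038 over all genes, and SIK mutant 1 was highest for 9 of the 28. The 4 with the lowest p included 3 phosphatases of the ERK family of kinases. *Dusp4* was 5.18, 4.94, 3.08 and 2.98 CPM in controls and 5.83, 9.10, 11.5 and 9.43 CPM in mutants. The groups did not overlap (1.65% of all genes were higher without overlap and 2.39% lower), mutant 1 was the lowest mutant, and the log2 fold change was 1.15 (SE 0.26, FDR = 0.414 by edgeR). *Dusp6*, a feedback inhibitor of ERK, was 25.2 to 33.3 CPM in controls and 32.6 to 48.9 CPM in mutants (log2 fold change 0.60, SE 0.14, FDR = 0.434 by edgeR). *Dusp5* was 0.875 to 2.84 and 2.03 to 4.06 CPM (0.88, SE 0.36, FDR = 0.767 by edgeR). *Gadd45g*, a growth arrest gene, was 16.0 to 33.3 CPM in controls and 7.99 to 17.7 CPM in mutants, with overlap through mutant 1 alone (log2 fold change -1.17, SE 0.30, FDR = 0.468 by edgeR). *Csrnp1*, named here after its values were seen, was the only other of the 28 without overlap, at 6.70 to 7.48 CPM in controls and 5.39 to 6.49 CPM in mutants. DESeq2 called *Dusp4* (adjusted p = 0.0161), *Dusp6* (0.0423) and *Gadd45g* (0.0322), among 67 genes in all.

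**Figure D5:**
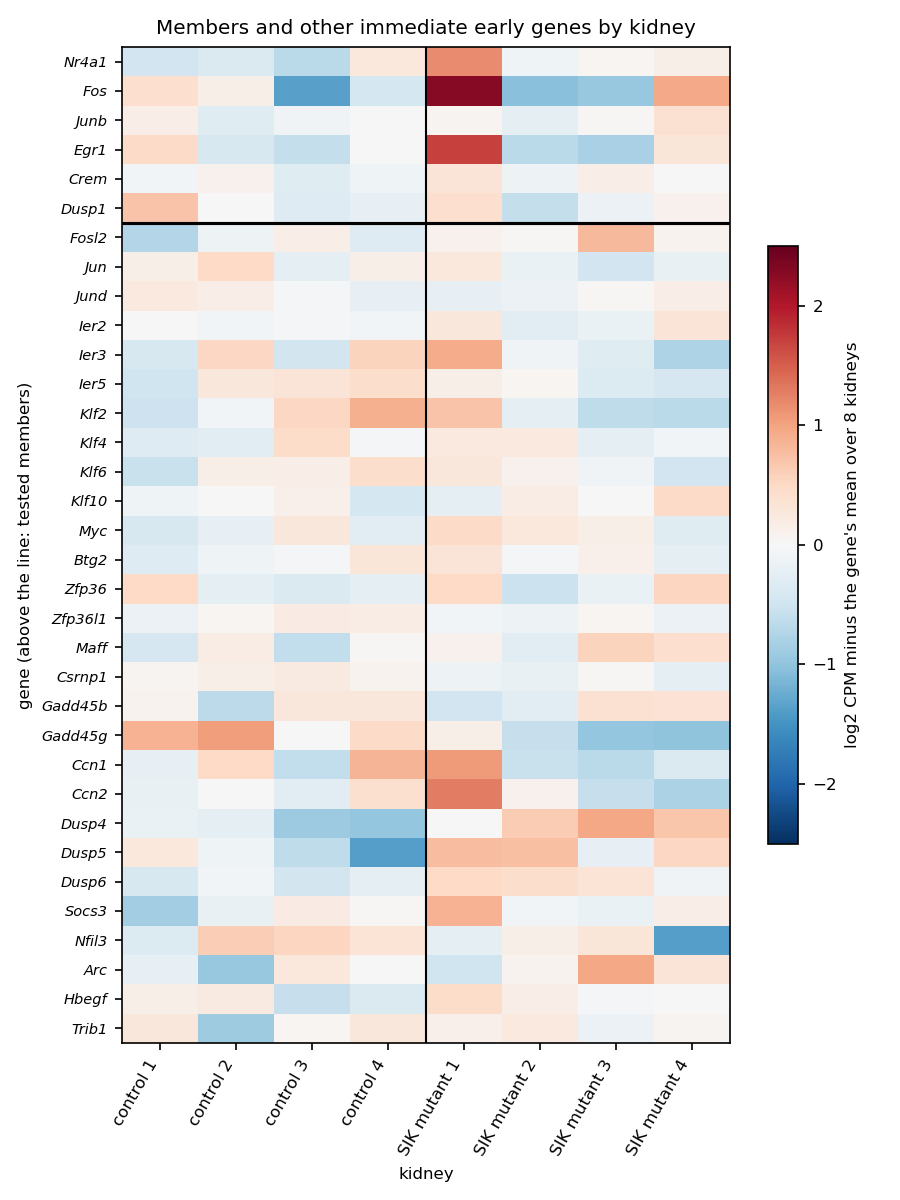
Log2 CPM of each gene (rows) minus its mean over 8 kidneys, in 4 control and 4 SIK mutant kidneys (columns), for the 6 tested transcripts above the line and 28 other immediate early genes below it. The darkest red cells are *Fos* and *Egr1* in SIK mutant 1, and *Dusp4* runs from blue in controls to red in mutants 2 to 4.

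Other CREB targets gave a mixed picture. Of 16 listed, 11 were tested, 0 passed FDR 0.05 by edgeR or DESeq2, and 4 passed an unadjusted p of 0.05 (6.36% of all genes), 2 in each direction (edgeR). That count was 1 with a covariate for adipocyte transcripts, where 2317 of all 14326 genes passed, beside 911 in the main fit. *Sik1* was 36.8 to 43.1 CPM in controls and 43.4 to 54.1 CPM in mutants (log2 fold change 0.31, SE 0.094, FDR = 0.601 by edgeR), although it is itself a gene with floxed alleles. *Pde4b*, which degrades cAMP, was 8.93 to 12.7 and 12.8 to 16.2 CPM (0.39, SE 0.14, FDR = 0.713 by edgeR). *Cited2*, which competes for the coactivators CBP and p300, was 85.3 to 93.6 and 67.0 to 78.5 CPM (-0.29, SE 0.077, FDR = 0.488 by edgeR). *Pck1*, the gluconeogenic enzyme of the proximal tubule, was 980 to 1867 and 592 to 1185 CPM (-0.72, SE 0.27, FDR = 0.722 by edgeR). The groups overlapped for *Pck1* and not for the other 3, 2 of them higher (1.65% of all genes) and 1 lower (2.39%).

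Transcripts of the listed CREB and SRF regulators were also without a call by edgeR. All 13 listed regulators, CREB and its relatives, the CRTC coactivators, CBP, p300, SRF, its ELK partners and the ERK kinases, were tested, and 0 passed FDR 0.05 or an unadjusted p of 0.05 by edgeR. Their log2 fold changes ran from -0.25 to 0.12. The lowest p belonged to *Mapk3* (ERK1), at 87.6 to 117 CPM in controls and 77.4 to 90.9 CPM in mutants (log2 fold change -0.25, SE 0.11, FDR = 0.784 by edgeR), followed by *Ep300* (0.10, SE 0.11), *Creb1* (0.10, SE 0.15) and *Srf* (-0.06, SE 0.095). In the 6 kidneys with Y-linked reads *Creb1* was at 0.42 (SE 0.12, unadjusted p = 0.00644, FDR = 0.276 by edgeR) and *Mapk3* at -0.04 (SE 0.093). There 1 of the 13 passed an unadjusted p of 0.05, beside 1591 of all 14326 genes. Controls 3 and 4 were the highest controls for *Creb1* and for *Mapk3*. mRNA levels say nothing of the phosphorylation of CREB, ERK or the CRTC proteins.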

How the data were processed

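RNA-Seq libraries of 8 whole kidneys (BGISEQ500), 4 per genotype by their titles, were used. Per the submitters' notes, STAR 2.7.2b, RSEM 1.3.0, FastQC and DESeq2 were used with build mm10. The authors' deposited expected counts are gene-level RSEM estimates, neither normalised nor whole, and were rounded here. The authors' deposited TPM values are abundances corrected for length and were used for levels between genes and as an alternative. RSEM's posterior SD was 0.0 for the 10 genes. Of 55401 gene IDs, 55141 matched GENCODE M21 without version.

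The fit was edgeR 4.0.16 in R 4.3.3 (quasi-likelihood F test, legacy mode, TMM, filterByExpr, Benjamini-Hochberg over 14326 genes, threshold 0.05), with neither covariate nor block. SE was |log2 fold change| divided by the root of F. Log CPM used a prior count of 0.5. Exact permutation tests were two-sided over all 70 assignments, or all pairings for correlations. Alternatives used RLE or upper-quartile factors, DESeq2 1.42.0, limma 3.58.1 (voom, or log2(TPM + 1) and log2(TPM + 0.1)), other filters, a replicate block, the 6 kidneys with Y-linked reads, covariates for Y-linked and adipocyte transcripts, and leaving out each kidney. The edgeR and limma code was tested on simulated data. Named genes were the 10, the 4 lowest p of each list (more only if called), and the 5 most like *Fos* and *Nr4a1*. The genes and lists were chosen with earlier results of these data known. The labels do not say how replicates were obtained beyond their numbers, so p-values measure the spread between these samples. Intervals from counts cover counting error only.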

Additional observations from a re-analysis of the deposited data

Results flagged for a closer look

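Among the 4 SIK mutants, *Nr4a1* in SIK mutant 1 (8.12 CPM) stood apart from the others (3.30 to 3.94 CPM). Its gap to the nearest kidney was 0.866 of the group's range, above Dixon's 95% critical value for 4 samples. It was the only such kidney in the 44 groups of the 10 genes and of the genes named by the lowest p in the 3 lists, where about 1 in 20, or 2.2, would pass by chance. Among the other tested genes of these lists, gaps above that value were those of *Ccn1* in the same kidney (0.893), *Fosl2* in SIK mutant 3 (0.933), *Zfp36* in control 1 (0.894), *Crebbp* in control 4 (0.861) and *Per1* in control 4 (0.836). *Fos* and *Egr1* in SIK mutant 1 had gaps of 0.665 and 0.756 of the range and stayed below that value.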

How the results depend on the processing

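Of the 10 genes, 0 were called under the 22 alternatives, which tested 6 of them, or 10 with no filter and 4 with a mean of at least 50 counts. Over these the log2 fold change ran from 0.30 to 0.93 for *Nr4a1* (21 fits), -0.34 to 2.09 for *Fos* (21 fits) and 0.0081 to 0.39 for *Crem*. The highest for *Fos*, 2.09, came with the adipocyte covariate, of which genotype determines 42.9%. Directions reversed for *Egr1* without SIK mutant 1 (-0.23). With the 6 kidneys with Y-linked reads less SIK mutant 1, chosen after seeing the data, they reversed for *Egr1* (-0.40) and *Fos* (-0.34), and the median of the tested members was -0.16. *Junb* was -0.0017 without SIK mutant 4. *Dusp1* reversed on log2(TPM + 1) (0.021) and log2(TPM + 0.1) (0.022), with the adipocyte covariate (0.39), without control 1 (0.16) and without SIK mutant 2 (0.038). These scales shifted the median of all genes by 0.092 and 0.11, to 0.088 and 0.11, so that *Dusp1* lay below it. Unadjusted p was under 0.05 for 1 of the 6 tested transcripts in each of 5 fits. Of all 14326 genes, 762 passed it without control 4 and 580 without SIK mutant 2. On the TPM scales 1184 and 1176 passed, and 1497 in the kidneys with Y-linked reads without SIK mutant 1. *Nr4a1* had an unadjusted p of 0.0265 without control 4 (edgeR FDR = 0.920) and 0.0455 without SIK mutant 2 (edgeR FDR = 0.998). *Crem* had an unadjusted p of 0.0414 and 0.0392 on the TPM scales (limma FDR = 0.602 and 0.598). *Dusp1* had an unadjusted p of 0.0429 in the kidneys with Y-linked reads without SIK mutant 1 (edgeR FDR = 0.455). On leaving out each kidney in turn the median was 0.11 to 0.54, *Junb* -0.0017 to 0.21, *Egr1* -0.23 to 0.86 and *Dusp1* -0.29 to 0.16.

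Calls over all genes, 0 by edgeR, were 67 by DESeq2, 2 by voom, 1 with legacy mode off, 4 and 5 on the TPM scales (pseudocounts 1 and 0.1), 9 with no filter, 19 in the kidneys with Y-linked reads, 31 in these without SIK mutant 1, 17 with the Y-linked covariate, 209 with the adipocyte covariate and 0 to 1 on leaving out 1 kidney. The other immediate early genes had 3 calls by DESeq2 and 1, *Gadd45g*, in the kidneys with Y-linked reads without SIK mutant 1. The causes were not tested.

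For correlations with *Fos*, log2(TPM + 1) gave r of 0.876 for *Nr4a1* (exact permutation p = 0.0227), 0.758 for *Crem* (exact permutation p = 0.0229) and 0.698 for *Dusp1* (exact permutation p = 0.0433). Without the 2 outermost kidneys r was -0.21 for *Nr4a1*, 0.833 for *Egr1* and 0.720 for *Dusp1*, and *Dusp1* was at 0.694 in the kidneys with Y-linked reads.

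Same-numbered kidneys of the 2 genotypes did not deviate together over all tested genes (r -0.14, 0.057, 0.024 and -0.25). Such correlations cannot show whether the numbers pair kidneys by litter or processing, and the labels do not say. A replicate block gave a median of 0.25, *Nr4a1* at 0.63, *Fos* at 0.83 and 0 calls, with 657 genes at an unadjusted p of 0.05 beside 911. Depth limits *Nr4a2*, *Nr4a3*, *Fosb* and *Atf3*, with at most 19 counts in any kidney.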
